A study of Oryza sativa Japonica Group with 6 samples.

Results

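Expansins and the cellulose synthase superfamily act on opposite sides of plant cell growth, one loosening the wall and the other building it. Their rice genes were taken by name from a gene annotation, as those whose symbol or synonym is EXPA, EXPB, EXLA or EXLB with a number, CESA with a number, or CSL with a letter and a number. The annotation held 84 such genes, and 58 of them had a probe set tied to 1 gene only, of 17905 genes that could be read on the array in this way. These 58 were 14 of 29 α-expansins (EXPA), 11 of 15 β-expansins (EXPB), 4 of 5 expansin-like genes (EXLA, with EXLB1 not read), all 9 cellulose synthase catalytic subunits (CESA) and 20 of 26 cellulose synthase-like genes (CSL). Where a gene had several probe sets, the one with the highest mean over all arrays stood for it. The values decided neither the names nor the families.

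Root RNA of rice seedlings was hybridized to 6 GeneChip Rice Genome Arrays, 3 for each of the treatments called +N and −N. All plants were Oryza sativa ssp. japonica cv. TNG67, with no mutation or transgene named, germinated in the dark for 3 days and then raised to an age of 10 days in Yoshida's hydroponic medium, in which ammonium nitrate supplied the nitrogen. For −N the seedlings spent 1 h in this medium with the nitrogen left out, and for +N they had nitrogen throughout. The question was which genes of the root respond within 1 h of losing nitrogen. The labels say that +N seedlings were also moved to fresh medium for that hour, while the Methods describe a move for −N alone, so handling and nitrogen cannot be told apart if only −N seedlings were moved. For +N replicate 3, one of the labels states 0.5 h. Both −N replicate 1 and −N replicate 2 are titled as reanalysed. Replicates are labelled biological with no mention of separate cultures, and p-values then cover only how far these particular samples vary.

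In a growing root, expansins let cellulose fibres slide past each other at acid pH without cutting them, and the cell then enlarges under its own turgor. CESA proteins form the complexes in the plasma membrane that spin cellulose, with CESA1, CESA3 and CESA8 known for primary walls of expanding cells and CESA4, CESA7 and CESA9 for the thickened secondary walls of vessels and fibres. CSL proteins resemble CESA and make other wall glycans, among them mannans (CSLA), the backbone of xyloglucan (CSLC) and, in grasses, the mixed-linkage glucan (CSLF and CSLH), while CSLD genes are known for tip-growing cells such as root hairs. Grasses carry an unusually large set of β-expansins.

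None of the 58 genes passed the test after adjustment over all genes (limma, adjusted p under 0.05), with or without the replicate number as a block. Of all 17905 genes, 0.0223% passed as higher and 0.0838% as lower in −N, and with the block 0.212% and 0.408%. At an unadjusted p under 0.05 in limma, 5 of the 58 were higher (EXLA4, EXPA1, EXPA8, EXPA31 and EXPB11), against 2.17% of all genes, and 2 were lower (CSLF7 and EXPB7), against 3.08%. With the block, the unadjusted counts became 28 higher, against 12.8% of all genes, and 4 lower, against 7.89%. The lowest adjusted p of any of the 58 was 0.382 for EXPA31, and with the block it was 0.0625 for EXPA8.

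Although no single gene passed, most of the differences had the same sign. The log2 fold change, −N over +N, was above 0 for 46 of the 58 genes (79.3%), where 55.7% of all genes had a value above 0. Its median was 0.29 over the 58 genes and 0.03 over all genes. By family, the median was 0.42 for CESA, 0.33 for EXPA, 0.27 for EXLA, 0.26 for EXPB and 0.20 for CSL. A single array moved these medians. Without +N replicate 1 the median of the 58 genes was 0.07 and that of CESA 0.03, while without −N replicate 1 they were 0.51 and 0.75. The median of all genes moved as well, to −0.09 and 0.17. With both replicate 1 arrays left out, the medians were 0.25 for the 58 genes, 0.36 for CESA and 0.05 for all genes.

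The arrays of equal replicate number share much of their variation, so each −N array was also compared with its own +N array. In all 3 pairs, −N was higher for 37 of the 58 genes (63.8%), against 26.5% of all genes, and lower for 5 (8.62%), against 17.5% of all genes. The remaining 16 genes had mixed signs. The medians of the 58 genes in pairs 1, 2 and 3 were 0.34, 0.28 and 0.15, and those of all genes were −0.004, 0.05 and 0.06. CESA had the highest share of genes with −N above +N in every pair (8 of 9), followed by EXPB (7 of 11), CSL (12 of 20), EXPA (8 of 14) and EXLA (2 of 4). These genes were all read from the same 6 arrays, so the counts are descriptions and the genes are not independent of each other. Among the 14718 genes whose intensity was at or above that of the median probe set, 29.1% were higher in all pairs, and of the 52 members among them 69.2% were.

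**Figure D1:**
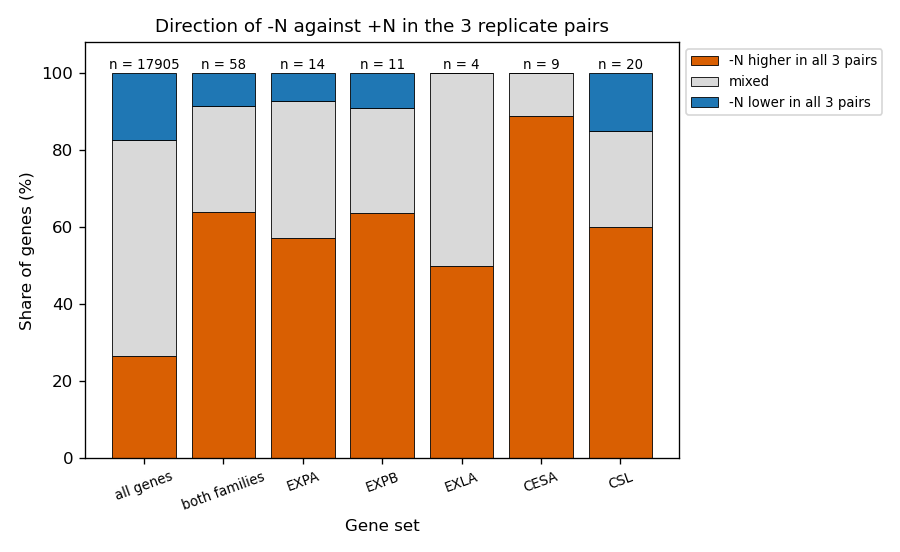
Share of genes (%, vertical axis) whose −N array lay above (orange) or below (blue) the +N array of the same replicate number in all 3 pairs, or gave mixed signs (grey), for all genes, the 58 genes of both families, and each family. The orange share was 26.5% for all genes and 63.8% for the 58 genes.

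The replicates differed among themselves more than the treatments did. The first principal component (55.7% of the variance over all probe sets) set both replicate 1 arrays apart from the other 4. Replicate 1 was the lowest array in both treatments for 36 of the 58 genes (62.1%), close to the 59.9% of all genes, and for 8 of 9 CESA genes. For CESA, the median ratio of replicate 1 to the mean of replicates 2 and 3 was 0.518 in +N and 0.532 in −N, where it was 0.782 and 0.729 for all genes. The groups overlapped for most of the 58 genes. All 3 −N arrays were above all 3 +N arrays for 6 genes (EXLA4, EXPA1, EXPA7, EXPA8, EXPA31 and EXPB2), which is 10.3%, against 3.98% of all genes. All −N arrays were below for 4 genes (CSLD1, CSLF7, CSLH1 and EXPB7), which is 6.90%, against 5.32%.

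Of 14 measured root markers (19 in the annotation), 7 had a log2 fold change above 0 (55.7% of all genes) and 7 below (−1.85 for AMT1-2 to 2.01 for IRT1). The authors list AMT1-2 as repressed and IRT1 as induced by −N, so neither marks root content alone. The root markers included LSI1, a silicon transporter of roots, at intensities of 11842 to 16384, and SCR1 at 13.7 to 28.2. All 6 measured green shoot markers of 27 had log2 fold changes below 0 (median −0.84), where 55.7% of all genes were above 0. For 4 of them −N was lower in all pairs, against 17.5% of all genes. The difference was uneven, with medians of −1.76, −0.09 and −0.56 in pairs 1, 2 and 3. RBCS1 was near the bottom of the range on every array (5.10 to 6.06). Summed intensities of the 6 markers were 23989, 13858 and 16632 in +N replicates 1 to 3 and 7338, 12130 and 11151 in −N replicates 1 to 3. Most of each sum came from CAB2R, at 14903, 10785 and 13017 in +N and 5202, 9656 and 9510 in −N. Of 17 measured cell cycle genes (21 in the annotation), which mark dividing cells, 15 had a log2 fold change above 0 (55.7% of all genes) and 13 were higher in all pairs (26.5% of all genes), with a median of 0.30 and summed intensities of 2203 to 4028 in +N and 2784 to 5072 in −N. In limma, none of these marker genes passed after adjustment, and their part in the values of the wall genes was not tested. In RNA of whole roots, fewer cells of a type and less RNA per cell cannot be told apart.

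The α-expansins are the proteins best known for acid-induced loosening of the wall. Of the 14 read here, 3 were higher in −N at an unadjusted p under 0.05 in limma (2.17% of all genes) and none lower (3.08%). With the block, 7 were higher (12.8% of all genes) and none lower (7.89%). The intensities of EXPA31 (LOC4333168) were 100.5, 111 and 109 in +N replicates 1 to 3 and 269, 207 and 180.4 in −N replicates 1 to 3. The +N arrays lay close together and every −N array was well above them. EXPA31 averaged 107 ± 5.47 (SD, n = 3) with nitrogen and 219 ± 45.5 (SD, n = 3) without. The difference of mean log2 values was 2.02-fold (log2 fold change 1.02, SE 0.22), with an unadjusted p of 0.00198 and an adjusted p of 0.382 in limma, and 0.0813 with the block.

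EXPA8 (LOC4327217), known in rice as a gene expressed mainly in roots, read 489, 443 and 379 in +N and 824, 876 and 611 in −N. The lowest −N array was above the highest +N array. In log2 terms −N was higher by 0.81 (SE 0.23), with an adjusted p of 0.531 in limma and 0.0625 with the block. EXPA1 (LOC4335222) read 785, 1127 and 1494 in +N and 1549, 2031 and 2328 in −N. The order of the replicates was the same in both treatments, and the lowest −N array exceeded the highest +N array by a small margin. Its log2 fold change was 0.82 (SE 0.29 without and 0.11 with the block), with adjusted p-values of 0.746 and 0.0634 in limma. For EXPA1 the differences of the 3 pairs, 0.98, 0.85 and 0.64 on the log2 scale, varied less than the arrays within a treatment.

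EXPA29 (LOC4342086) showed the widest spread among the pairs of the named α-expansins. It read 49.1, 71.5 and 39.4 in +N and 64.5, 201 and 84.7 in −N, so that the treatments overlapped and −N replicate 2 stood far above the rest. The log2 fold change of 1.00 (SE 0.44) had an unadjusted p of 0.0548 in limma and an adjusted p of 0.977. EXPA7 (LOC4334606) was even in −N, at 260.0, 256 and 249, and lower in +N, at 150.3, 215 and 222. The groups did not overlap, but pair 1 alone gave 0.79 of log2 difference and the other pairs 0.25 and 0.17. Its log2 fold change was 0.40 with an adjusted p of 1 in limma, and 0.226 with the block.

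Not every α-expansin differed in this direction. EXPA3 (LOC4338278) read 1616, 2669 and 1759.9 in +N and 1673, 2625 and 2017 in −N. Replicate 2 was the highest array in both treatments and the treatments matched to within the spread of the replicates, with a log2 fold change of 0.07 (SE 0.28) that turned below 0 when −N replicate 2 was left out (−0.10). EXPA4 (LOC4339106), known in rice for growth of the coleoptile, was near the bottom of the range on every array (5.09 to 8.58) and had a log2 fold change of −0.22, the lowest of the family. The other 7 α-expansins ran from −0.08 to 0.35. EXPA17, required for root hair elongation in rice, was 1 of the 15 α-expansins not read here.

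**Figure D2:**
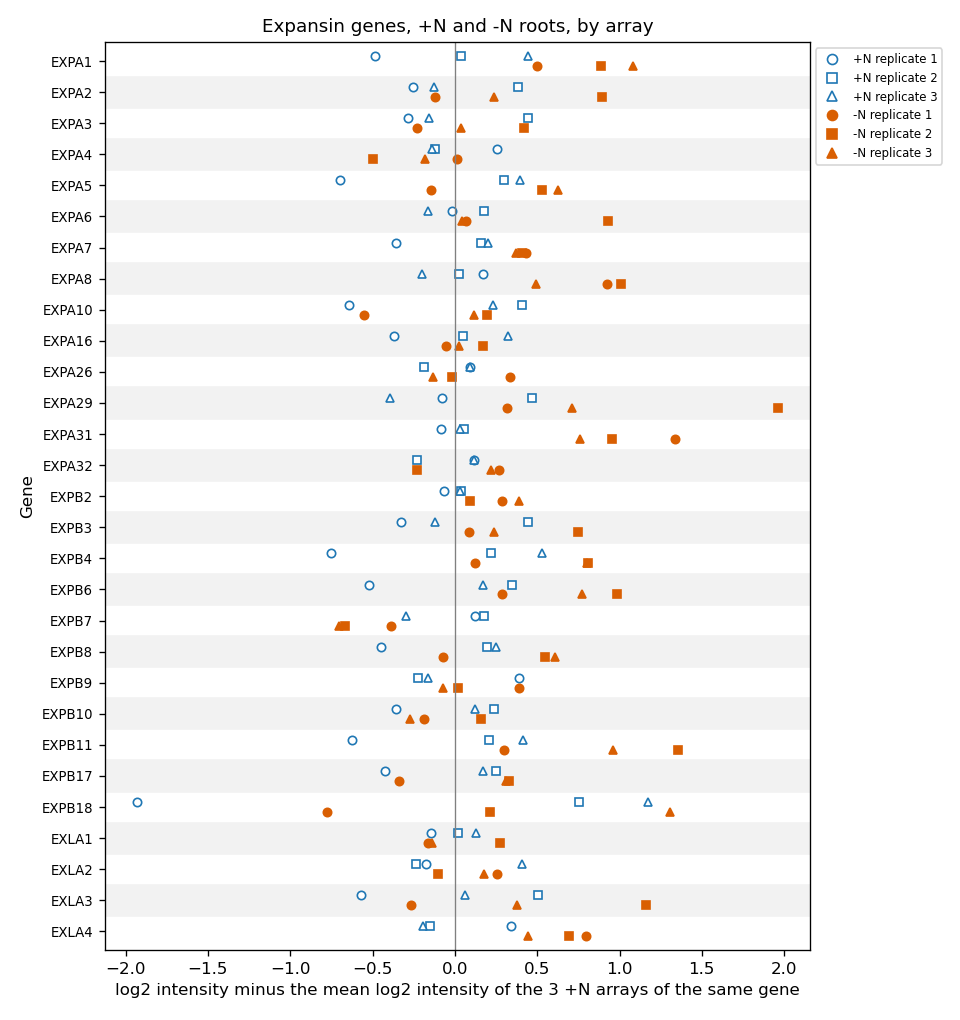
Log2 intensity of each expansin on each of the 6 arrays, relative to the gene's mean over the 3 +N arrays (horizontal axis, log2 units). Open blue symbols are +N, filled orange symbols −N, and the symbol shape gives the replicate number. For EXPA1, EXPA7, EXPA8, EXPA31, EXPB2 and EXLA4 all orange symbols lie to the right of all blue ones, and for EXPB7 to the left.

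The β-expansins in grasses include root and shoot proteins as well as the pollen allergens. Of the 11 read here, 1 was higher at an unadjusted p under 0.05 in limma (2.17% of all genes) and 1 lower (3.08%). With the block, 5 were higher (12.8% of all genes) and 1 lower (7.89%). EXPB11 (LOC4330213) read 463, 825 and 949 in +N and 878, 1821 and 1387 in −N. The array of −N replicate 1 lay within the +N range, and each −N array was above its own +N array by 0.92, 1.14 and 0.55 on the log2 scale. Over all arrays this was 0.87 (SE 0.37 without and 0.14 with the block), with adjusted p-values of 0.921 and 0.0882 in limma.

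EXPB7 (LOC4331300) differed in the other direction. It read 6599, 6875 and 4933 in +N and 4635, 3819.8 and 3724 in −N, and every −N array lay below every +N array. EXPB7 averaged 6136 ± 1051 (SD, n = 3) with nitrogen and 4059.6 ± 501 (SD, n = 3) without. On the log2 scale the difference was −0.59 (SE 0.22). The unadjusted p was 0.0317 in limma and the adjusted p 0.809, or 0.113 with the block. Its neighbour EXPB8 on chromosome 3, with no other protein-coding gene between them in assembly ASM3414082v1, had a log2 fold change of 0.36 and differences of 0.37, 0.35 and 0.36 in the 3 pairs. EXPB8 was chosen for its position after its values were seen.

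A run of 4 β-expansins on chromosome 10 (EXPB6, EXPB2, EXPB3 and EXPB4, with no other protein-coding gene between them in the same assembly) was higher in −N in all 3 pairs for each gene. EXPB6 (LOC4349347) read 1623, 2962 and 2621 in +N and 2832, 4599 and 3979 in −N. Replicate 1 was the lowest array in both treatments and the groups overlapped, while the pairs gave 0.80, 0.63 and 0.60 on the log2 scale. EXPB6 had a log2 fold change of 0.68 (SE 0.30), with adjusted p-values of 0.992 in limma and 0.0714 with the block.

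EXPB4 (LOC4349350) read 932, 1832 and 2270.2 in +N and 1708, 2755 and 2744 in −N, for a log2 fold change of 0.58. The name of its probe set marks probes that may match more than 1 transcript, so signal of a close copy in this run cannot be separated from it. EXPB2 (LOC4349348) had the closest arrays of the run, at 3402, 3652 and 3630.3 in +N and 4346, 3787 and 4667 in −N. No −N array was within the +N range, although the log2 difference was only 0.26 (SE 0.19, adjusted p of 1 in limma and 0.275 with the block). EXPB3, named here for its place in the run after its values were seen, had a log2 fold change of 0.36. The other 5 β-expansins (EXPB9, EXPB10, EXPB17 and EXPB18, with EXPB8 above) ran from −0.10 to 0.36. EXPB5, linked to root hairs in rice, was not read here.

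The expansin-like proteins share the expansin fold, but no wall-loosening activity is established for them. EXLA4 (LOC4342109) read 21.3, 15.1 and 14.7 in +N and 29.1, 27.1 and 22.9 in −N. All −N arrays were above all +N arrays at a dim signal, below the median probe set of any array (33.3 to 35.2). The log2 fold change was 0.64 (SE 0.23), with an unadjusted p of 0.0255 in limma and adjusted p-values of 0.756 and, with the block, 0.0945. EXLA3 (LOC4343213) read 109.7, 231 and 169.9 in +N and 135, 363 and 211 in −N, higher in each pair with overlapping groups (log2 fold change 0.42). EXLA1 (LOC4331516) and EXLA2 (LOC4349265) had mixed pairs and log2 fold changes of −0.01 and 0.11. The probe set of EXLA2 is of a kind whose probes may cross-hybridize.

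**Figure D3:**
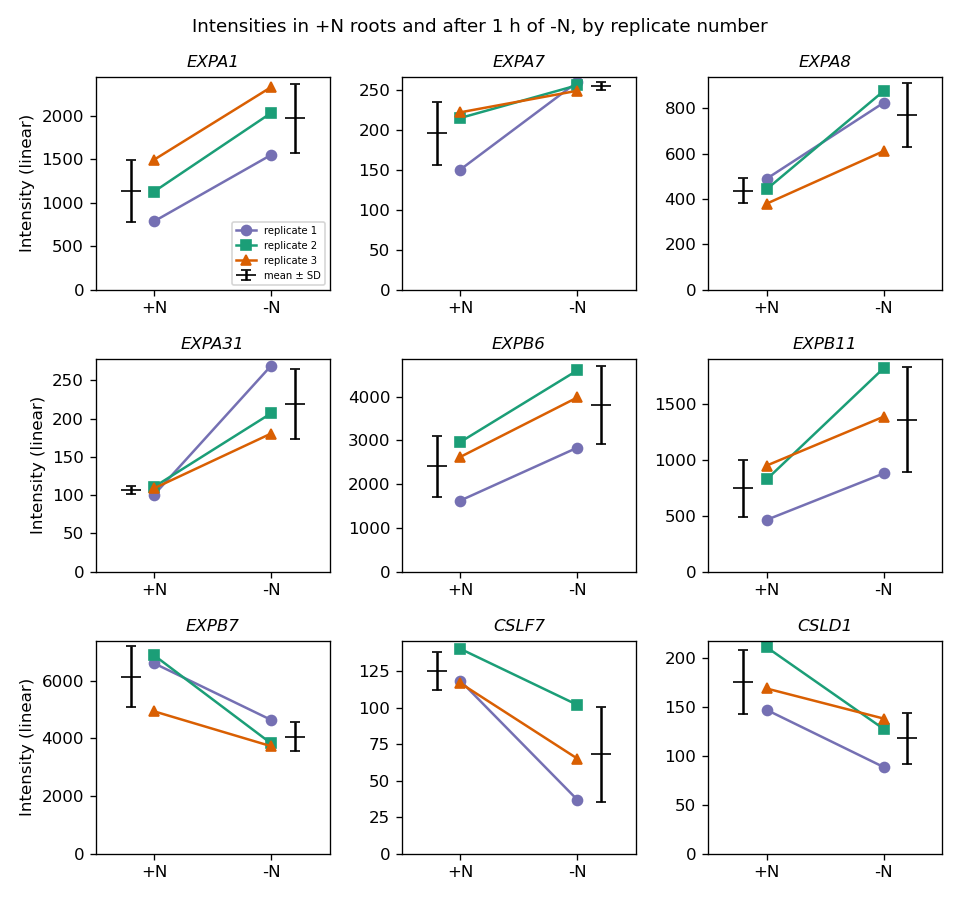
Linear intensities (vertical axes, each starting at 0) of 9 of the genes in +N roots and after 1 h of −N. Lines join arrays of equal replicate number, and the black bars give the mean ± SD of 3 arrays. For EXPB6 and EXPB11 the groups overlap although every line points upward, and for EXPB7, CSLF7 and CSLD1 every line points downward.

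The cellulose synthases varied together across the arrays. Of the 9 CESA genes, 8 were higher in −N in all 3 pairs (26.5% of all genes), with log2 fold changes of 0.23 to 0.49. None of the 9 had an unadjusted p under 0.05 in limma (lowest 0.248). With the block, 7 of the 9 were higher at an unadjusted p under 0.05, against 12.8% of all genes, and none passed after adjustment (lowest adjusted p 0.12, for CESA8). The size of each difference was small beside the spread of the arrays within a treatment, in which replicate 1 lay well below the mean of the other replicates for every gene of this family but CESA2.

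For the primary wall, CESA1 (LOC4337958) read 1569.7, 4215 and 3648 in +N and 2293, 5153 and 4859 in −N. Both replicate 1 arrays lay below all other arrays of CESA1. Its log2 fold change was 0.42 (SE 0.46 without and 0.10 with the block), with adjusted p-values of 1 and 0.133 in limma. CESA8 (LOC4342699) read 1387, 3025 and 2975 in +N and 2076, 3913 and 3891 in −N, with pair differences of 0.58, 0.37 and 0.39 on the log2 scale. CESA3 (LOC4343049) had the smallest difference of the 3, with 3209, 5716 and 6013 in +N and 4155, 6694 and 6459 in −N. Its log2 fold change was 0.23, and without +N replicate 1 it was −0.06, where that of CESA1 was −0.02. A second, dimmer probe set of CESA1 gave 0.05 and one of CESA3 gave 0.13.

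For the secondary wall, CESA4 (LOC4324625), CESA7 (LOC4348853) and CESA9 (LOC4347093), each known in rice from brittle culm mutants, had log2 fold changes of 0.43, 0.41 and 0.49. CESA9 read 193, 253 and 445 in +N and 248, 494 and 493 in −N. For CESA9, +N replicate 3 was close to the −N arrays of replicates 2 and 3, and +N replicate 2 was not. The same held for CESA4 (563, 924 and 1277 in +N, then 729, 1627 and 1379 in −N) and for CESA7 (746, 977 and 1602 in +N, then 963, 1627 and 1729.6 in −N). The ratio of +N replicate 3 to +N replicate 2 was 1.38, 1.64 and 1.76 for CESA4, CESA7 and CESA9, and 0.865, 1.05 and 0.983 for CESA1, CESA3 and CESA8. The pair differences of the secondary wall genes were unequal, at 0.82, 0.74 and 0.97 in pair 2 and 0.11, 0.11 and 0.15 in pair 3. This split between the +N arrays is a difference between 2 replicates of 1 treatment and has no test.

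Of the 8 other genes of xylan and secondary walls, 2 had a ratio of +N replicate 3 to +N replicate 2 above 1 (IRX9L at 1.11 and GT43C at 1.90), and the median of the 8 was 0.876. Of the 21 partners of cellulose synthesis and endoglucanases, listed further below, BC1 had a ratio of 1.60, and the median of that list was 1.07. GT43C and BC1 are named with their values already seen. The label of +N replicate 3 with its 0.5 h stands beside this array, and its part in the values was not tested. CESA6 (LOC4342850) read 1699.8, 3486 and 3200.3 in +N and 2352, 3992 and 4214 in −N (log2 fold change 0.35). CESA5 was at 0.42, and CESA2 (LOC4334515) was dim, at 29.3 to 74.6, with mixed pairs and a log2 fold change of −0.16.

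**Figure D4:**
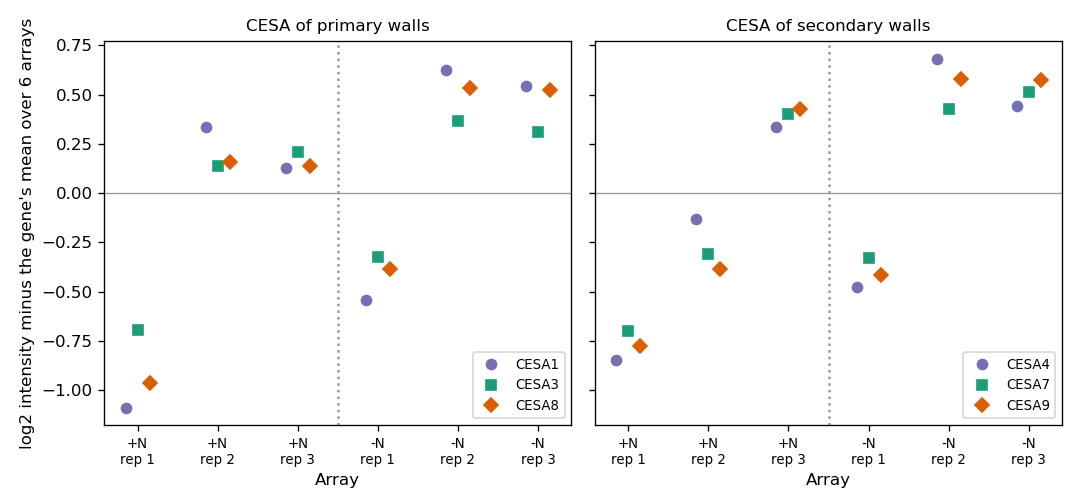
Log2 intensity of the cellulose synthase genes of primary walls (left) and secondary walls (right) on each array, relative to the gene's own mean over 6 arrays (vertical axis, log2 units). Both replicate 1 arrays lie lowest for every gene of both panels. Among the secondary wall genes, +N replicate 3 lies near the −N arrays of replicates 2 and 3, and its ratio to +N replicate 2 was 1.38 to 1.76.

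Among the 20 CSL genes, 12 were higher in all 3 pairs (60%, against 26.5% of all genes) and 3 lower (15%, against 17.5%). All 4 CSLA genes, of the mannan synthase kind, had log2 fold changes above 0 (0.28 to 0.45) and were higher in every pair. CSLA1 (LOC4328585, for which the annotation also lists the synonym CSLA9) read 319, 1052 and 926 in +N and 414, 1335 and 1169.8 in −N. The pairs of CSLA1 gave 0.37, 0.34 and 0.34 on the log2 scale, although replicate 1 was at 0.324 of the mean of the other replicates in +N and at 0.331 in −N. Its log2 fold change of 0.35 had SEs of 0.58 without and 0.09 with the block and adjusted p-values of 1 and 0.14 in limma, and it was −0.19 without +N replicate 1.

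All 5 CSLC genes, of the xyloglucan backbone kind, were above 0 as well (0.07 to 0.65), and 4 were higher in all pairs. CSLC3 (LOC4345095) read 99.8, 275 and 229 in +N and 169, 415 and 347 in −N. The groups overlapped through replicate 1, and the pairs gave 0.76, 0.59 and 0.60. Its log2 fold change was 0.65 (SE 0.47 without and 0.10 with the block), with adjusted p-values of 1 and 0.0765 in limma. CSLC7 (LOC4339283) was at 0.17, or −0.25 without +N replicate 1, and its probe set is of a kind whose probes may cross-hybridize.

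The 4 CSLD genes had no common direction. CSLD1 (LOC4349505), required for root hairs in rice, read 147, 211 and 168 in +N and 88.3, 127 and 138 in −N. All −N arrays were below all +N arrays. The log2 fold change was −0.58 (SE 0.26), with an unadjusted p of 0.0538 in limma and adjusted p-values of 0.974 and, with the block, 0.119. CSLD2 (LOC4339895) read 218, 419 and 405 in +N and 272, 708 and 617 in −N, higher in each pair with a log2 fold change of 0.56 (adjusted p of 1 in limma and 0.116 with the block). CSLD4 was at 0.27, from a probe set whose probes may cross-hybridize, and CSLD5 was near the bottom of the range, at −0.04. The difference between CSLD1 and CSLD2 was not tested. SRH2, the only measured gene of the root hair marker list, had a log2 fold change of −0.09.

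The mixed-linkage glucan genes also differed among themselves. CSLF6 (LOC4344719), the main synthase of this glucan in grasses, read 331, 1110.0 and 969.6 in +N and 517, 1597 and 1163 in −N. It was higher in each pair, with both replicate 1 arrays far below the others and a log2 difference of 0.48 that was −0.07 without +N replicate 1. CSLF8 (LOC4343552) read 62.0, 87.5 and 127 in +N and 136, 111 and 157 in −N, with a log2 fold change of 0.60 (unadjusted p of 0.0852 in limma), and pair 1 alone differed by 1.14. Next to it on chromosome 7, CSLF2, named here for its position after its values were seen, had a log2 fold change of −0.15.

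CSLF7 (LOC4348365) gave the largest difference downward of the 58 genes. It read 118, 140.4 and 117 in +N and 36.9, 102 and 65.1 in −N, and all −N arrays lay below all +N arrays. CSLF7 averaged 125 ± 13.2 (SD, n = 3) with nitrogen and 68.0 ± 32.6 (SD, n = 3) without. The +N arrays were close together, the −N arrays were not, and the pairs gave −1.68, −0.46 and −0.84 on the log2 scale. It was 1.99-fold lower in −N (SE 0.36 on the log2 scale), with an unadjusted p of 0.0259 in limma and adjusted p-values of 0.76 and, with the block, 0.133. CSLH1 (LOC4348359), able to make the same glucan in grasses, read 792, 766 and 827 in +N and 700.2, 518 and 723 in −N, again without overlap, for a log2 difference of −0.31 (SE 0.21, adjusted p of 1 in limma and 0.234 with the block). The 2 CSLE genes, of unknown product, had mixed pairs and values of −0.04 (CSLE1) and 0.11 (CSLE2). Dimmer probe sets of CSLE2 gave −0.16 and −0.05.

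**Figure D5:**
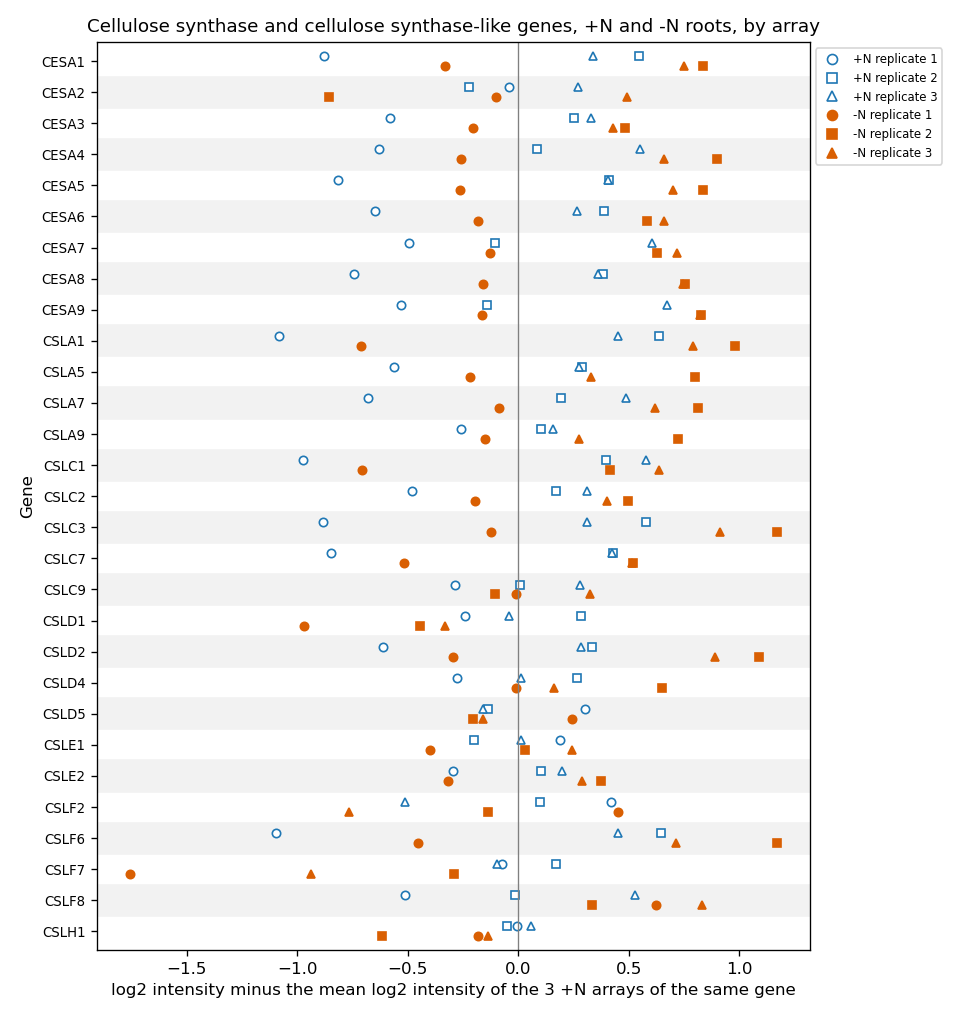
Log2 intensity of each CESA and CSL gene on each of the 6 arrays, relative to the gene's mean over the 3 +N arrays (horizontal axis, log2 units), with open blue symbols for +N, filled orange symbols for −N and the symbol shape for the replicate number. Circles (replicate 1) lie far to the left for most genes, and only for CSLD1, CSLF7 and CSLH1 do all orange symbols lie to the left of all blue ones.

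Other genes of the wall were read from lists taken by name. Of 39 measured, none passed after adjustment in limma with or without the block, 1 was higher at an unadjusted p under 0.05 (2.17% of all genes) and none lower (3.08%), and with the block 8 were higher (12.8%) and 1 lower (7.89%). Their median log2 fold change was 0.14. In all 3 pairs, 15 of the 39 were higher (38.5%, against 26.5% of all genes) and 3 lower (7.69%, against 17.5%). Of the 21 partners of cellulose synthesis and endoglucanases, 15 had a log2 fold change above 0 (71.4%, against 55.7% of all genes), with a median of 0.14. In all pairs, 6 were higher (28.6%, close to the share of all genes) and 2 lower (9.52%, against 17.5%). The lowest p-values were those of GLU10, an endoglucanase, at 0.60 (unadjusted p of 0.0817 in limma) and BC1L9, a COBRA-like gene, at 0.75 (0.0928). Of 8 genes of xylan and secondary walls, 6 were higher in all pairs (75%, against 26.5% of all genes), among them GT43A at 0.41 and IRX9L at 0.26.

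Of 5 cell wall invertases, which split sucrose outside the cell, CIN1 was at 0.53 and CIN4 at −0.39. CIN1 read 311, 348 and 331 in +N and 423, 429 and 602 in −N, with no overlap and an unadjusted p of 0.0429 in limma (adjusted p 0.904, and 0.142 with the block). Among 3 pectin genes the log2 fold changes ran from −0.06 (PMEI8) to 0.10 (PAE1). XTH8, a xyloglucan-cutting enzyme, was at 0.22, and AGP1, an arabinogalactan protein, at −0.01.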

How the data were processed

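Total RNA of rice roots was hybridized to Affymetrix Rice Genome Arrays. The authors deposited 1 linear intensity per probe set and array, and GCOS and RMA appear in the submitters' processing notes without version or order. Since log2 values had been foreseen, log2 of the deposited intensities was taken first, with no pseudocount. No depth exists for arrays, and the number of arrays (6) limits precision. The upper quartiles ran from 130.5 to 179.5 over the arrays, so the 6 distributions were not equal. Control probe sets (187) were left out. Of 57381 probe sets, 22436 carried 1 gene symbol, 95 several and 34850 none. Names came from the platform annotation and a RefSeq gene table of assembly ASM3414082v1, in which all 17905 genes were found, and the order of genes along chromosomes came from the latter. No sequence is shown, because no sequence table was used.

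The −N arrays were compared with the +N arrays in R 4.3.3 by the moderated, two-sided test of limma 3.58.1 (lmFit, then eBayes) over all genes. Adjustment was by Benjamini-Hochberg over 17905 genes, with a threshold of 0.05. Values with ± are SDs over 3 arrays. The fits were tested on simulated data. Deviations from the group means of arrays of equal replicate number correlated at 0.785, 0.664 and 0.653, and those of unequal number between −0.547 and 0.0846, so the numbers were taken to pair the arrays. This pairing comes from the data, since no label says what a number marks. The fit without the block remained the main one. Alternatives were the replicate block, quantile normalization, median centring, a filter on dim genes, all probe sets averaged or tested singly, log2(value + 16), and each array or pair of arrays left out (the pairs added after seeing the data).

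The genes and the lists of other wall genes and markers were chosen with earlier results of these data known. Named genes were, in each family, the 3 of highest mean intensity and the largest change each way, those at an unadjusted p under 0.05 in either fit or at least 1.5-fold apart (up to 12 each way, by unadjusted p without the block), the primary and secondary wall CESA, CSLD1, CSLF6, EXPA17 and EXPB5, and in each other list the 2 genes of lowest p.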

Additional observations from a re-analysis of the deposited data

How the results depend on the processing

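None of the 58 genes passed after adjustment under any alternative, and without the block the lowest adjusted p of any of them over the alternatives was 0.191. Over all genes, limma called 4 higher and 15 lower, 38 and 73 with the replicate block, 2 and 22 after quantile normalization, 0 higher and 4 lower with all probe sets tested, and 0 to 10 higher and 0 to 14 lower when arrays were left out. At an unadjusted p under 0.05 there were 5 higher and 2 lower among the 58 genes, against 28 and 4 with the replicate block, 3 higher on log2(value + 16), and 1 to 11 higher and 0 to 2 lower when arrays were left out. With arrays left out, the median log2 fold change ran from 0.0663 to 0.508 over the 58 genes, 0.0288 to 0.750 for CESA, 0.00606 to 0.473 for CSL, 0.171 to 0.458 for EXPA, 0.194 to 0.492 for EXPB and 0.0814 to 0.385 for EXLA. It was 0.289 for EXPA on log2(value + 16), and 0.357 for EXPB and 0.112 for EXLA with dim genes filtered. Of 33 named genes under 526 alternatives in all, 24 kept their sign in each. The other 9 turned in 19 alternatives, 18 of them with arrays left out: CESA1 (−0.0235 to 0.792), CESA2 (−0.48 to 0.20), CESA3 (−0.0553 to 0.455), CSLA1 (−0.19 to 0.88), CSLC7 (−0.25 to 0.52), CSLF6 (−0.0728 to 0.943), EXLA1 (−0.15 to 0.12, and 0.00207 with median centring), EXLA2 (−0.0484 to 0.316) and EXPA3 (−0.10 to 0.30). The cause was not tested. Fewer samples remain when arrays are left out, and a probe set near the bottom of the array's range, as for EXPA4, EXPA32, EXPB10 and CSLD5, can show little change.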
